A study of Mus musculus with 18 samples.

Results

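The genes of the cytosolic ribosomal proteins were followed in the small intestine of irradiated and non-irradiated mice. A gene symbol was taken as a member when it began with Rpl or Rps followed by a digit, or was Rplp0, Rplp1, Rplp2 or Rpsa. Symbols beginning with Rps6k, which are kinases, and symbols holding -ps, which are pseudogenes, were left out. The rule found 86 members among the 21928 symbols of the mRNA table and used no measured value. Of these, 83 reached 1 FPKM in at least 3 of 18 libraries and were tested. By their spelling they are 49 of the large subunit with its stalk, 33 of the small subunit, and Rps19bp1. The rule takes Rps19bp1 by its spelling, but it is a nucleolar protein that binds Rps19 and is not a ribosomal protein. The 49 include Rpl7l1, a relative of Rpl7 with a role in ribosome assembly. The remaining 3 members, Rpl10l, Rpl39l and Rpl3l, were listed at 0 or reached at most 0.137 FPKM, and were not tested. The mice were wild type C57BL/6, with 3 libraries in each of 6 groups, and the tissue was small intestine at day 21. The female groups were Ffat (12 Gy total abdominal irradiation, TAI, then a high-fat diet, HFD), FTAI (12 Gy TAI) and Fcon (no irradiation). The male groups were MT (12 Gy TAI, then simvastatin), MTAI (12 Gy TAI) and Mcon (no irradiation). The labels number the libraries of a group and do not state that each is a separate mouse, so the p values below measure the spread between these libraries, which may be technical.

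The cytosolic ribosome makes the proteins of the cell from 4 ribosomal RNAs and a set of ribosomal proteins, 1 copy of nearly each per ribosome, so that their genes are expressed in proportion to one another. In mammals most of their mRNAs begin with a run of C and T, the 5′ terminal oligopyrimidine (TOP) motif, through which mTORC1 and Larp1 control their translation, while MYC and other factors drive their transcription. In the intestine, ribosome production is high in the dividing cells of the crypt and falls as cells differentiate on the villus.

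FPKM scales the fragments of a transcript by its length and by the library, so that levels can be compared between genes. Summed FPKM ranged over the libraries between 390703 and 417937, and the steps of low values gave depths relative to one another of 0.79 to 1.18. Male and female libraries were separated without exception by Uty, Kdm5d, Eif2s3y and Ddx3y, all on the Y chromosome. The 18 enterocyte markers summed to between 25660 and 44540 FPKM in every library, and the 12 pancreatic acinar markers to at most 18.5 FPKM.

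The tested members had a median of 111 FPKM over the libraries, against 7.78 FPKM over all 11767 tested symbols. Their main transcripts were short, with a median length of 830 nt against 2840 nt. The most abundant was Rpl41, the smallest ribosomal protein, with a mean of 337 FPKM. It was followed by Rplp0, which forms the base of the stalk that recruits translation factors, with 308 FPKM, by its partner Rplp1 with 258 FPKM, and by the small subunit proteins Rps14 with 247 FPKM and Rps3a1 with 232 FPKM. The lowest were Rps19bp1 with 5.16 FPKM, Rpl7l1, a relative of Rpl7 with a role in ribosome assembly, with 11.2 FPKM, Rps15a with 13.7 FPKM, Rpl21 with 24.0 FPKM and Rps20 with 24.3 FPKM. The main transcripts of Rps15a, Rps20 and Rpl7l1 were long for members, at 5179, 3706 and 2606 nt. The part of this length in their low FPKM was not tested. A level of a ribosomal protein gene in these files carries a limit, because many processed copies lie elsewhere in the genome. A median of 50.6% of the 50-base words of a member's main transcript also occurred in transcripts of other genes in GENCODE M21. The sources used here do not say how reads of such words were assigned. The left-out symbol Rps12-ps3, a copy of Rps12, had a mean of 206 FPKM, against 73.6 FPKM of Rps12 itself.

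Runs of pyrimidines near the start were more frequent among the members than among other genes. RefSeq promoter windows of GRCm38.p6, from 250 bases before to 50 after the start of the gene, matched 63 of the 83 tested members by symbol. Between 20 bases before and 50 after the start, on the sense strand, a run of at least 8 C or T was found in 48 of 63 members (76.2%) and in 28.4% of 26959 other genes. The letters CTTTCC in the same stretch were found in 30.2% of members and in 3.73% of other genes; such a match can overlap the run. CCGGAAG, a sequence bound by factors of the ETS family, was found on either strand of the whole window in 39.7% of members and in 9.86% of other genes. The other genes are all further symbols with a window, whether or not they were expressed here. A gene was counted if any of its windows matched. These are matches of letters, and no binding or start site was measured. The stretches below show members whose levels followed the other members closely (Rpl27a, Rpl35 and Rps10) and a gene of the stalk (Rplp2). They also show the gene with the clearest difference between groups (Rps2) and a member whose levels varied little over the libraries (Rps27l). Each is 30 bases from 5′ to 3′ on the strand of the gene, and the capitals mark the longest run of C or T that lies between 20 bases before and 50 after the start; bases before that stretch were not searched.
Rpl27a, chr7:109519186-109519215, plus strand: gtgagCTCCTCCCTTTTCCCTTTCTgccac
Rpl35, chr2:39005115-39005144, minus strand: gccccgCCCTTTCCTCTTTCTCTCgaacca
Rps10, chr17:27635226-27635255, minus strand: cgcgcacgCCCCTTCCTTTCCagcctccgc
Rplp2, chr7:141447636-141447665, plus strand: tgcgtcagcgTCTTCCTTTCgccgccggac
Rps2, chr17:24720083-24720112, plus strand: aaattgtcccttccgcggcgCCTCCCTCTT
Rps27l, chr9:66946064-66946093, plus strand: ctcctctccaCTCCTCCCCgccgcctctat
The run held 20 bases in Rpl27a, 18 in Rpl35, 13 in Rps10, 10 in Rplp2 and in Rps2, and 9 in Rps27l. These stretches do not cover the range of the members. The longest run held 8 bases in Rpl12, 7 in Rpsa and 3 in Rpl7l1, the member whose levels varied least. The stretch of Rps2 begins at base 21 of the gene, whereas the other stretches shown begin before the start. The run of Rps2 ends at the last base of the window and may be longer. That of Rps27l lies wholly before the annotated start. Neither of these runs covers the annotated start, whereas those of Rpl27a, Rpl35, Rps10 and Rplp2 do.

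Over the 18 libraries the members moved almost as a block, and libraries of 1 group could lie far apart. The members took 2.78, 3.54 and 2.62% of the summed FPKM in Ffat replicates 1, 2 and 3, 1.56, 2.14 and 4.03% in FTAI, and 1.93, 2.26 and 1.57% in Fcon. They took 1.98, 2.70 and 2.15% in MT, 2.17, 2.49 and 3.47% in MTAI, and 1.91, 2.93 and 1.81% in Mcon. All Ffat libraries lay above all Fcon libraries, while FTAI held both the lowest and the highest library of the series. The deviation of the median member from its mean over libraries, on log2(FPKM + 1), was 0.25, 0.64 and 0.18 in Ffat, −0.61, −0.15 and 0.79 in FTAI, and −0.35, −0.07 and −0.56 in Fcon. It was −0.29, 0.17 and −0.15 in MT, −0.10, 0.09 and 0.57 in MTAI, and −0.34, 0.30 and −0.34 in Mcon. FTAI replicate 3 was the highest library for 62 of 83 members, and FTAI replicate 1 the lowest for 42. Both subunits moved alike, with medians over the large and the small subunit that differed by at most 0.055 (log2) in any library. In bulk tissue, fewer cells of a type and less RNA per cell cannot be told apart.

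**Figure D1:**
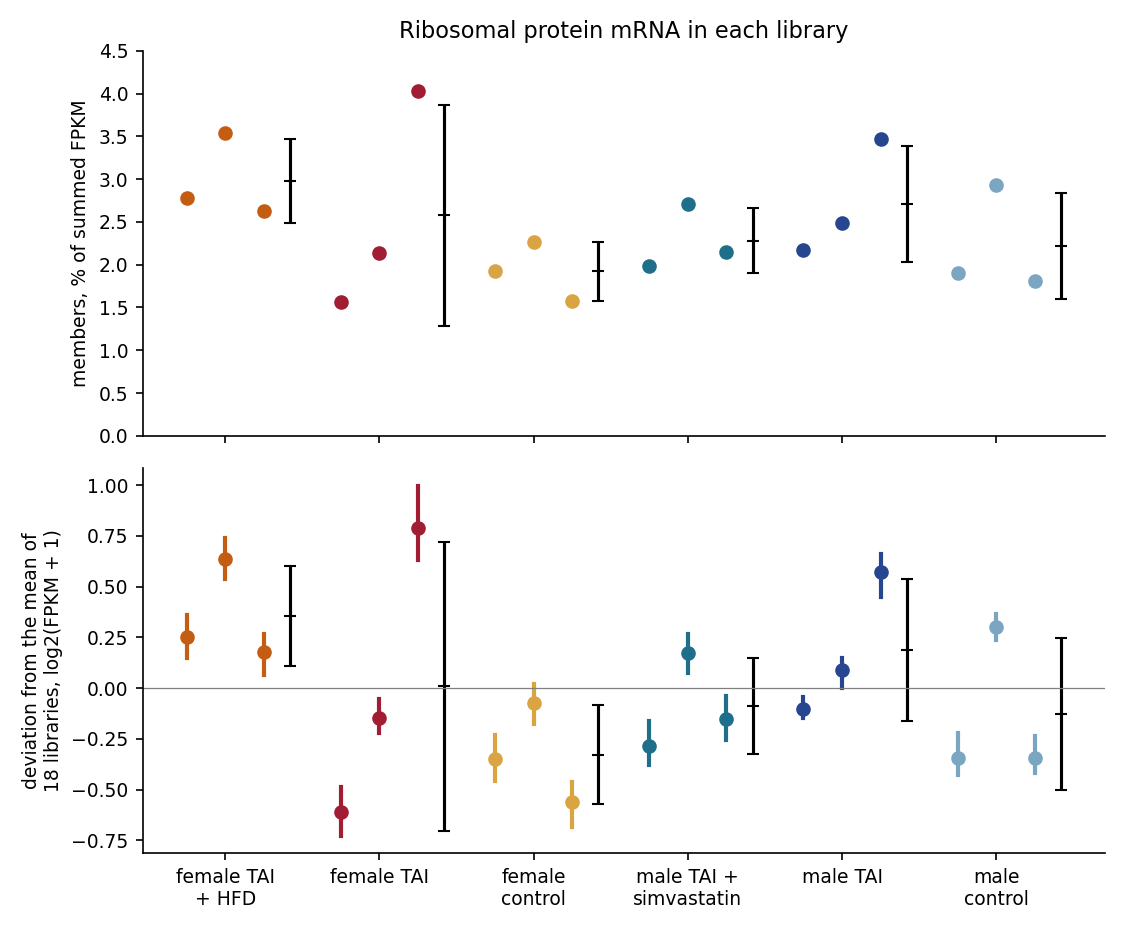
Ribosomal protein mRNA in each of 18 libraries. The upper panel shows the share of summed FPKM taken by the members in percent, and the lower panel the median member's deviation from its mean on log2(FPKM + 1) with a line between the quartiles of the members; black marks are group means with 1 SD (n = 3). The Ffat libraries lie at 2.62 to 3.54% and the Fcon libraries at 1.57 to 2.26%, while FTAI spans 1.56 to 4.03%.

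The likeness of a member to the rest was described by Pearson's r of its log2(FPKM + 1) with the mean of the other members over 18 libraries. All points share the libraries and their scaling, and no test was made. The median r was 0.96, with 60 members above 0.9, 8 between 0.8 and 0.9 and 15 below 0.8. Tested symbols that are no members had a median r of 0.35 with the mean member, and 302 of 11684 lay above 0.9. After the group means were removed the median r of the members was 0.97, so that the block is also seen among libraries of the same group. The SD of a member over libraries had a median of 0.44 (log2), against 0.20 for all tested symbols, and the highest library of a member was a median of 3.01 times its lowest. The heatmap of members shows this as columns of 1 colour, broken in its lowest rows by a few genes that went their own way.

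**Figure D2:**
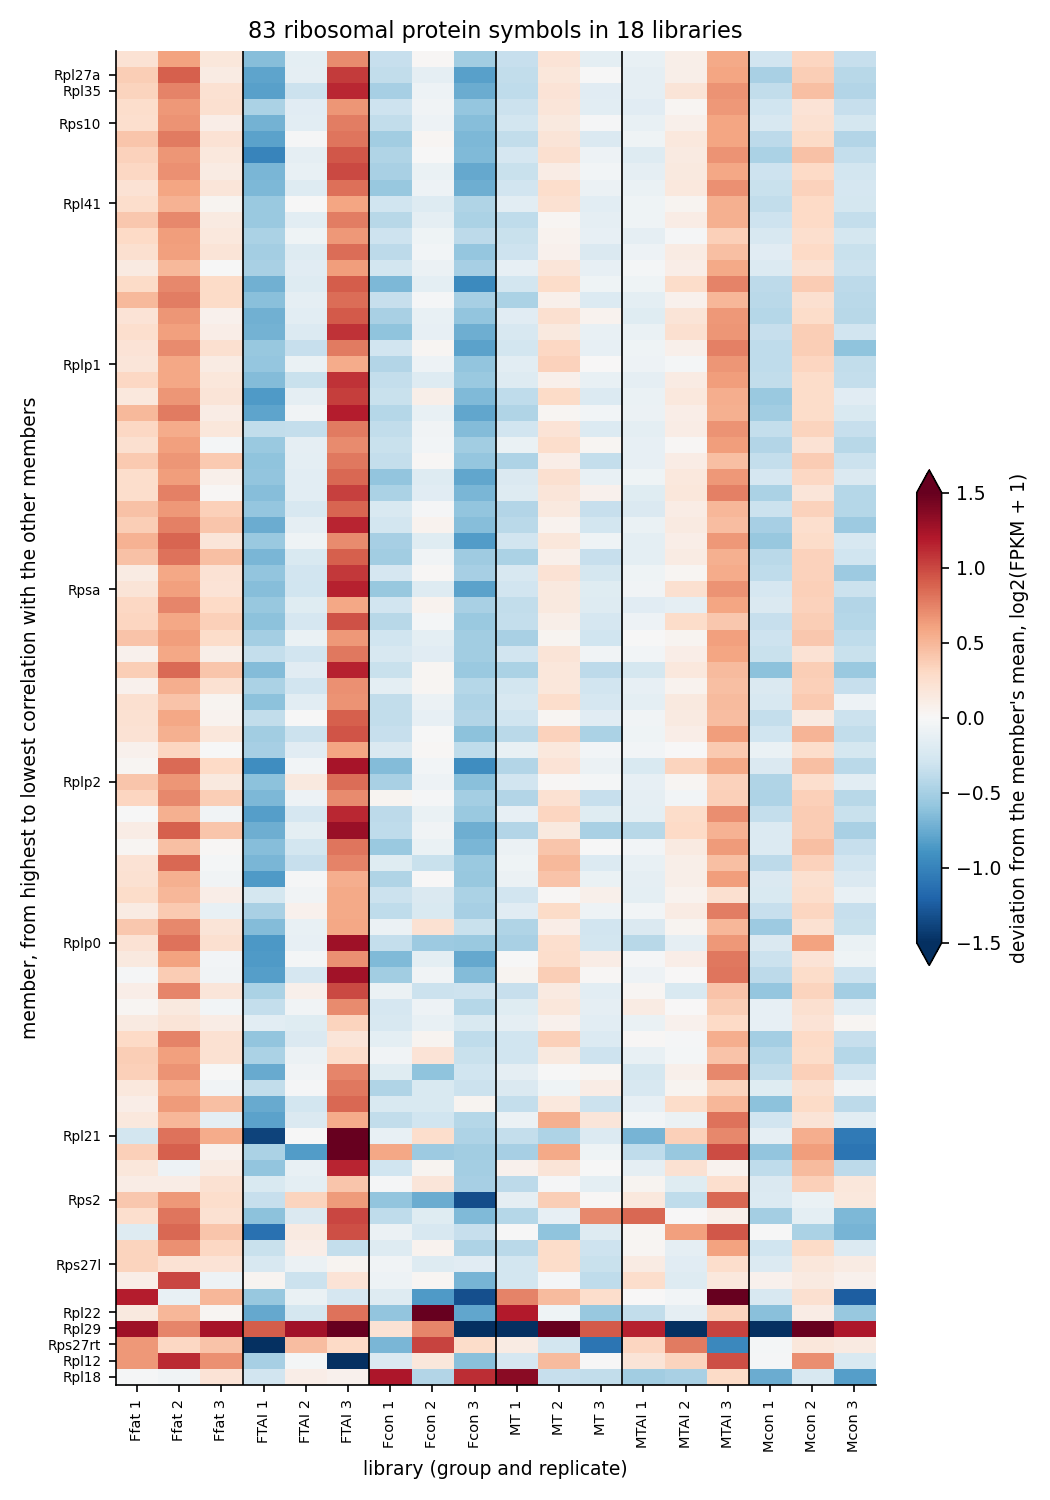
Deviation of each of 83 members from its own mean over 18 libraries on log2(FPKM + 1), in colour from −1.5 to 1.5, with values past these limits shown in the end colours. Rows run from the highest to the lowest correlation with the other members, and some of them are labelled. FTAI replicate 3, MTAI replicate 3 and Ffat replicate 2 are red in most rows, FTAI replicate 1 and Fcon replicate 3 are blue, and Rpl29, Rps27rt, Rpl12 and Rpl18 at the bottom do not follow.

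The largest median difference lay between irradiated female mice fed HFD and female control mice. In Ffat against Fcon, 82 of 83 members had a positive log2 fold change, with a median of 0.69 against 0.10 over all tested symbols, and 69 members had all 3 Ffat libraries above all 3 Fcon libraries, against 29.2% of all tested symbols. In one limma fit of all 18 libraries, however, only Rps2 passed a Benjamini-Hochberg adjusted p of 0.05 over all tested symbols, so that 1 of 83 members rose where 2.91% of all tested symbols did. Before adjustment, 50 of 83 members were higher at p under 0.05, against 19.1% of all tested symbols. No member was lower past the threshold (1.67% of all tested symbols), at an unadjusted p under 0.05 (6.76%) or without overlap (10.8%), and Rpl18 was the only member with a negative value.

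Rps2, a small subunit protein at the channel through which mRNA enters, had 224, 267 and 203 FPKM in Ffat, against 112, 101 and 66.6 FPKM in Fcon. The lowest Ffat library lay well above the highest Fcon library. The means were 231 ± 32.4 FPKM in Ffat and 93.0 ± 23.5 FPKM in Fcon (SD, n = 3 each), a log2 fold change of 1.33 with a standard error of 0.29 (adjusted p = 0.0163 from limma). The call was lost without Fcon replicate 3 (adjusted p = 0.0841 from limma), without Ffat replicate 1 (0.0589) and without Ffat replicate 2 (0.0832), fits in which 1.15, 1.04 and 0.918% of all tested symbols were higher.

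The genes of the stalk and Rpsa were of the same kind. Rplp0 had 332, 504 and 337 FPKM in Ffat and 223, 195 and 195 FPKM in Fcon. Rplp1 had 283, 375 and 273 FPKM in Ffat and 184, 238 and 166 FPKM in Fcon. Rplp2 had 106, 126 and 87.7 FPKM in Ffat and 56.3, 75.2 and 50.7 FPKM in Fcon. Rpsa, a small subunit protein known also as the laminin receptor, had 118, 160 and 120 FPKM in Ffat and 69.4, 90.5 and 58.8 FPKM in Fcon. None of these 4 genes overlapped between the groups, with log2 fold changes between 0.66 and 0.91, and none passed the threshold (adjusted p from 0.103 to 0.182 from limma). The Ffat and Fcon libraries overlapped for 14 members, among them Rpl18, Rpl21, Rpl22, Rpl29, Rps27 and Rps27rt.

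How many members passed in this comparison depended on whose spread entered the fit. With the libraries of Ffat and Fcon alone, 58 of 83 members were higher past the threshold, against 12.6% of all tested symbols. With each group weighted by its own spread, 41 were higher, against 15.6%. Without FTAI replicate 3, an alternative chosen after its values were seen, 34 were higher, against 11% of all tested symbols. The 3 fits shared 33 of the 59 members called in any of them. Where the main transcript of each symbol was tested in place of the sum, no member passed (1.89%). With median ratio scaling 3 members passed, Rps2 among them, against 2.57% of all tested symbols.

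**Figure D3:**
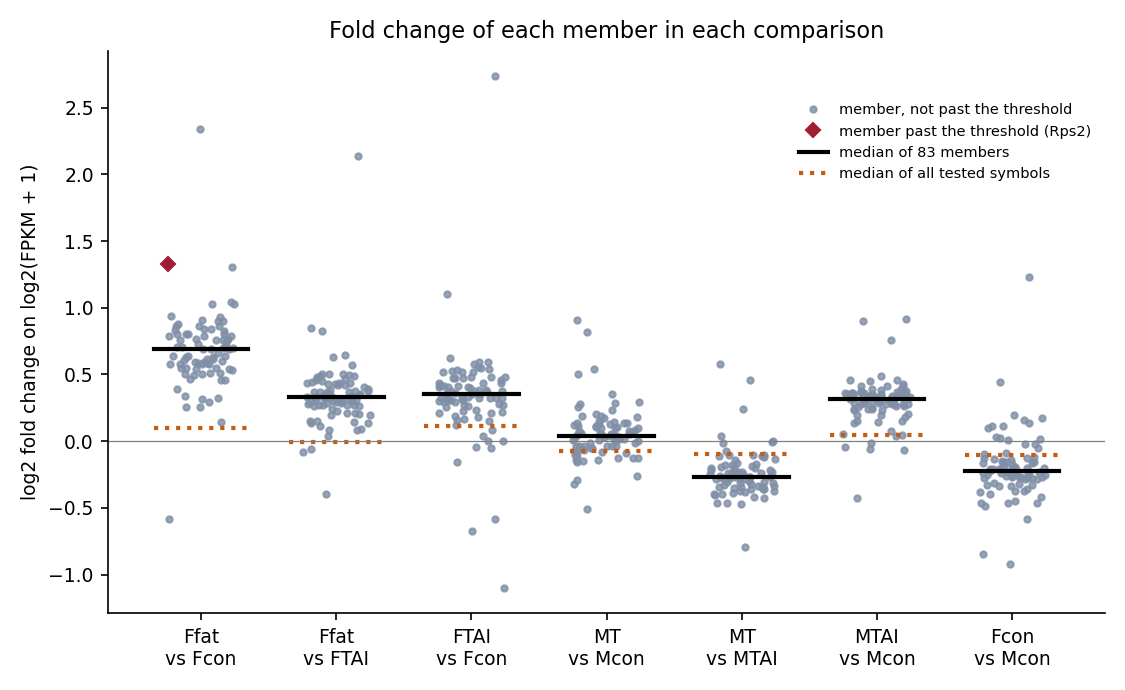
Log2 fold change of each of 83 members on log2(FPKM + 1) in 7 comparisons, with the median of the members as a black line and that of all 11767 tested symbols as a dotted line. The diamond is Rps2, which passed the threshold in Ffat against Fcon. The members' median is 0.69 in Ffat against Fcon and lies between −0.27 and 0.35 in the other comparisons.

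For irradiated female mice fed HFD against irradiated female mice, the 3 FTAI libraries disagreed among themselves. The median log2 fold change of the members was 0.33 in Ffat against FTAI, with −0.01 over all tested symbols, and 80 of 83 were positive. No member was called in limma (1.74% of all tested symbols were higher and 1.42% lower), 5 were higher at an unadjusted p under 0.05 (6.49% of all tested symbols), and 4 were higher without overlap (7.56%), which were Rpl12, Rpl22l1, Rpl39 and Rps27l. None was lower at an unadjusted p under 0.05 or without overlap (8.46 and 9.94% of all tested symbols). FTAI replicates 1 and 2 were also set apart after FTAI replicate 3 was seen to be the highest library for most members. Against these 2 alone, all 3 Ffat libraries lay higher for 70 of 83 members, against 30.3% of all tested symbols. As the split came from the members' own values, this count gives no measure of a difference with HFD. FTAI replicate 3 in turn lay above all Ffat libraries for 67 members, against 60.3% of all tested symbols. Without FTAI replicate 3 the median was 0.74 and 4 members passed, against 2.33% of all tested symbols. They were Rpl5, which carries 5S rRNA into the ribosome, the large subunit protein Rpl23, Rps6, the substrate of the S6 kinases, and Rps23, with log2 fold changes of 1.02, 0.85, 0.85 and 0.89, and were named after their values were seen. Without FTAI replicate 1 the median was 0.01.

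Irradiation alone gave no call in female mice. The median was 0.35 in FTAI against Fcon, with 0.12 over all tested symbols, and 76 of 83 members were positive. In limma 0.416% of all tested symbols were higher and 0.34% lower, none of them a member, and 2 members were higher at an unadjusted p under 0.05 (13.6% of all tested symbols). Rps2 and Rpl29 were higher without overlap (10.3%). None was lower at an unadjusted p under 0.05 or without overlap (3.59 and 4.14% of all tested symbols). Rps2 had 133, 214 and 264 FPKM in FTAI, against 112, 101 and 66.6 FPKM in Fcon, a log2 fold change of 1.10 with a standard error of 0.29 (adjusted p = 0.0995 from limma). FTAI replicates 3 and 1 were singled out after their values were seen. FTAI replicate 3 lay above all Fcon libraries for 77 members (62.3% of all tested symbols), whereas FTAI replicate 1 lay below all of them for 44 (25.1%). Accordingly the median was −0.04 without FTAI replicate 3 and 0.64 without FTAI replicate 1. Without FTAI replicate 1, Rps2 and Rplp2 passed the threshold, with log2 fold changes of 1.38 and 0.89 (7.66% of all tested symbols were higher). The comparisons Ffat against Fcon and FTAI against Fcon share the Fcon libraries, and Ffat against FTAI shares libraries with both.

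In male mice the members also lay a little higher after TAI, and no member was called. The median was 0.31 in MTAI against Mcon, with 0.05 over all tested symbols, and 78 of 83 were positive. In limma 1.2% of all tested symbols were higher and 0.901% lower, and 1 member was higher at an unadjusted p under 0.05 (6.88% of all tested symbols) and none lower (5.23%). Rpl7a and Rpl17, both of the large subunit, were higher without overlap, against 10.3% of all tested symbols, and none was lower without overlap (6.71%). Rpl7a had 29.9, 45.4 and 57.0 FPKM in MTAI and 29.1, 20.9 and 17.7 FPKM in Mcon, with a log2 fold change of 0.92 ± 0.40 (SE; adjusted p = 0.356 from limma). Rpl17 had 49.0, 26.5 and 28.0 FPKM in MTAI and 18.3, 23.8 and 16.2 FPKM in Mcon, of which MTAI replicate 1 was the highest. MTAI replicate 3 and Mcon replicate 2 were singled out after their values were seen. MTAI replicate 3 lay above all Mcon libraries for 77 members, and Mcon replicate 2 lay above MTAI replicates 1 and 2 for 77 members, against 46.2 and 47.1% of all tested symbols. The median was 0.11 without MTAI replicate 3 and 0.54 without Mcon replicate 2.

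Simvastatin after TAI went with a median below that of TAI alone. The median was −0.27 in MT against MTAI, with −0.09 over all tested symbols, and 78 of 83 members were negative. No member was called (0.0765% of all tested symbols were higher and 0.62% lower), and none was past an unadjusted p of 0.05 (2.69% higher and 12.2% lower). Rpl7a was lower without overlap (19.6% of all tested symbols), and no member was higher without overlap (5.82%). Rpl7a had 29.2, 18.9 and 25.4 FPKM in MT, against 29.9, 45.4 and 57.0 FPKM in MTAI. The median was −0.08 without MTAI replicate 3. In MT against Mcon the median was 0.04, with −0.07 over all tested symbols, and its sign depended on the library left out (−0.087 without MT replicate 2 and 0.25 without Mcon replicate 2). No member was called (2.74% of all tested symbols were higher and 2.63% lower) or past an unadjusted p of 0.05 (7.28% higher and 10.7% lower). Rps27a, which encodes a ribosomal protein fused to ubiquitin, had 103, 85.9 and 73.8 FPKM in MT and 51.6, 72.6 and 25.6 FPKM in Mcon. Its MT libraries were higher without overlap, as were 8.85% of all tested symbols, with a log2 fold change of 0.91 ± 0.44 (SE; adjusted p = 0.296 from limma). Rpl15 was lower without overlap, as were 16.6% of all tested symbols, with 37.3, 44.4 and 34.8 FPKM in MT and 47.5, 50.2 and 47.7 FPKM in Mcon.

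Between control mice the members had a negative median in females against males, which was close to 0 without 1 of the male libraries. The median was −0.22 in Fcon against Mcon, with −0.10 over all tested symbols, and 70 of 83 were negative. It was −0.34 without Fcon replicate 2 and −0.0015 without Mcon replicate 2. No member was called in limma (2.12% of all tested symbols were higher and 3.02% lower). Rps2, Rplp0, Rpl15, Rpl28 and Rps29 were lower without overlap, against 17.7% of all tested symbols, and none was higher without overlap (8.15%). At an unadjusted p under 0.05, 1 was lower (Rps2, 13.8% of all tested symbols) and 1 higher (Rpl18, 6.47%). Rps2 had 112, 101 and 66.6 FPKM in Fcon and 147, 158 and 190 FPKM in Mcon, with a log2 fold change of −0.84 ± 0.29 (SE; adjusted p = 0.110 from limma). Without Fcon replicate 2, Rpl18 was called higher in Fcon, with a log2 fold change of 1.76 ± 0.40 (SE; adjusted p = 0.0234 from limma), as were 1.89% of all tested symbols. The change after TAI in females minus that in males had a median of 0.03 over the members and 0.08 over all tested symbols. That of the members was −0.35 without FTAI replicate 3 and 0.36 without FTAI replicate 1. No member was called for this difference (0.501% of all tested symbols were higher and 0.833% lower) or was past an unadjusted p of 0.05 (6.39% higher and 4.31% lower), and the smallest adjusted p was 0.493, for Rps2, from limma.

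To ask which genes moved apart from the block, each library was also scaled so that its median member had the same level, and the fit was repeated. No member then passed the threshold in any of the 6 comparisons of treatment, whereas in Ffat against Fcon 0.28% of all tested symbols were higher and 2.95% lower. These shares were 0.051 and 0.0085% in Ffat against FTAI, 0.229 and 0.127% in MT against Mcon, 0.085 and 0.0765% in MTAI against Mcon, and 0% in the rest. At an unadjusted p under 0.05, 1 member was higher and 1 lower in Ffat against Fcon (1.5% and 40% of all tested symbols), 1 was higher in Ffat against FTAI (0.45% higher and 11.7% lower) and 1 was higher in FTAI against Fcon (1.49% higher and 2.89% lower). None passed that p in MTAI against Mcon (0.867% higher and 5.65% lower), MT against MTAI (2.84% and 2.74%) or MT against Mcon (2.63% and 5.18%). The smallest adjusted p values were those of Rpl18 (0.0997, log2 fold change −1.26) and Rps2 (0.111, log2 fold change 0.64), both in Ffat against Fcon in limma. With the libraries of Ffat and Fcon alone, Rps2 and Rpl29 were higher and Rpl18 lower past the threshold on this scale, where 1.94% of all tested symbols were higher and 59.4% lower. With groups weighted by their own spread, Rps2 was higher and Rpl18, Rpl36al and Rpl10 were lower, where 1.95% of all tested symbols were higher and 61.1% lower. The scaling itself centres the members, and it moved the median of all tested symbols to −0.48 in Ffat against Fcon. The shares of symbols lower on this scale hold that shift, so they are no background for the members.

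Rps2 itself was the sum of several transcripts whose shares differed between libraries. The transcript ENSMUST00000170715 had 130, 132 and 136 FPKM in Ffat, 93.8, 159 and 123 FPKM in FTAI, and 41.4, 0 and 0 FPKM in Fcon. It was also listed at 0 in 4 male libraries, MT replicate 2, MTAI replicates 2 and 3 and Mcon replicate 2. The other main transcript, ENSMUST00000054289, had 93.6, 134 and 67.1 FPKM in Ffat, 38.6, 54.3 and 136 FPKM in FTAI, and 70.0, 100 and 66.4 FPKM in Fcon. On this transcript alone the log2 fold change of Ffat against Fcon was 0.28 with a standard error of 0.67 (adjusted p = 0.833 from limma). The part of the assignment to transcripts in the difference was not tested. Of the 50 members with several transcripts, 4 (8%) had a main transcript under 1 FPKM in some library where the symbol reached at least 10 FPKM. The share was 4.92% of 3455 other symbols with several transcripts and a mean of at least 10 FPKM. The members were Rpl22, Rpl29, Rps27 and Rps27a. Rps2 is not among them, because the count does not see changes of a second transcript. Another such change was Rpl10 ENSMUST00000008826, with 0, 0.150 and 0.0400 FPKM in MT and 134, 196 and 119 FPKM in Mcon. It was not particular to MT, with 0.506 FPKM in FTAI replicate 1 and 0.386 and 0.437 FPKM in MTAI replicates 2 and 3. Summed over its transcripts, Rpl10 had 193, 233 and 203 FPKM in MT and 194, 251 and 173 FPKM in Mcon.

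**Figure D4:**
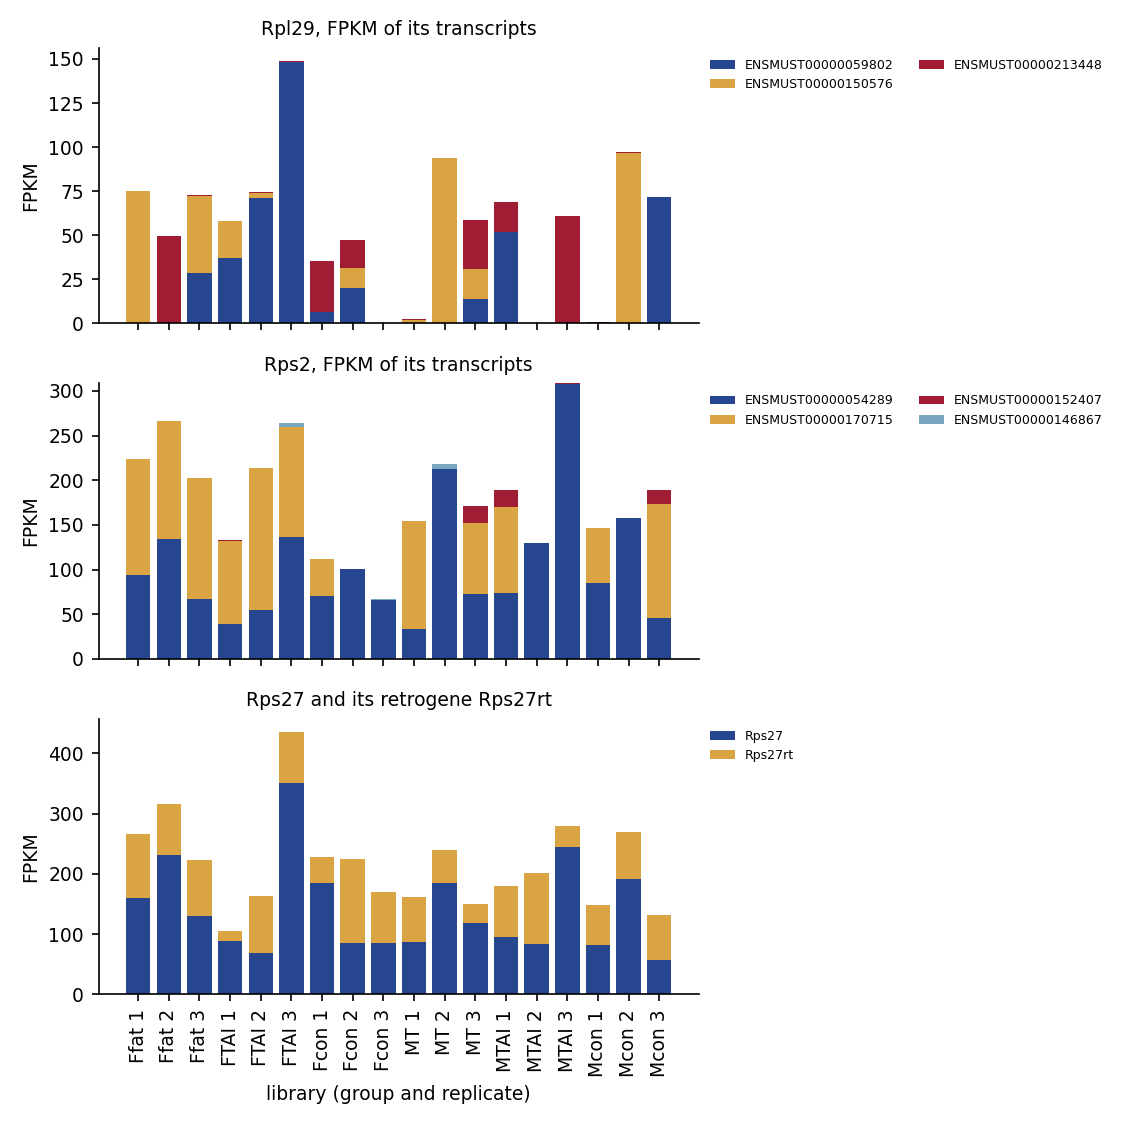
FPKM of the 3 main transcripts of Rpl29, the transcripts of Rps2, and the genes Rps27 and Rps27rt, stacked for each of 18 libraries. Different transcripts hold most of Rpl29 in different libraries, and its sum is under 3 FPKM in 4 libraries. The second transcript of Rps2 is listed at 0 in Fcon replicates 2 and 3, and Rps27 and Rps27rt trade places while their sum follows the other members.

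The 5 members least like the rest were Rpl18, Rpl12, Rps27rt, Rpl29 and Rpl22, with r of −0.14, −0.01, 0.24, 0.44 and 0.51. Rpl18, a large subunit protein, had 118, 37.0 and 109 FPKM in Fcon and 130, 39.4 and 38.8 FPKM in MT, and at most 61.6 FPKM in every other library. Its transcript ENSMUST00000072503 carried this, with 116 and 108 FPKM in Fcon replicates 1 and 3 and 129 FPKM in MT replicate 1, and at most 25.7 FPKM elsewhere. Rpl12, at the base of the stalk, stood apart through 1 library. It had 93.5, 130 and 95.9 FPKM in Ffat and 41.8, 57.9 and 4.54 FPKM in FTAI, where FTAI replicate 3, the highest library for most members, was its lowest. The log2 fold change of Rpl12 in Ffat against FTAI was 2.14 with a standard error of 0.60 (adjusted p = 0.0720 from limma). It passed without FTAI replicate 1 (adjusted p = 0.0438 from limma) and without FTAI replicate 2 (0.0221), fits in which 1.84 and 1.41% of all tested symbols were higher.

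Rpl29, a small basic protein of the large subunit, varied most, with an SD of 2.28 (log2) over the libraries. It had 75.1, 51.0 and 73.2 FPKM in Ffat, 58.0, 74.4 and 149 FPKM in FTAI and 35.5, 51.2 and 0.186 FPKM in Fcon. It had 2.70, 94.0 and 58.5 FPKM in MT, 69.0, 0.424 and 62.3 FPKM in MTAI and 1.16, 97.0 and 71.8 FPKM in Mcon. Levels under 3 FPKM occurred in 1 library of each of 4 groups, and its main transcript was under 1 FPKM in more libraries than the symbol. Rpl22 stood at 95.7 FPKM in Fcon replicate 2 and 70.8 FPKM in MT replicate 1, of which its transcript ENSMUST00000103191 made up 90.6 and 67.3 FPKM, and that transcript reached at most 1.93 FPKM in the other libraries. Rpl21 varied 11.1 times, between 7.23 FPKM in FTAI replicate 1 and 80.3 FPKM in FTAI replicate 3, in the direction of the block (r of 0.80). The least variable were Rpl7l1, Rps27l and Rps19bp1, with SDs of 0.18, 0.22 and 0.25.

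Several members are paralogs of others. Rps27rt is a retrogene of Rps27, a small subunit protein with a zinc finger, and 98.6% of the 50-base words of Rps27 occur in Rps27rt, and 91.1% the other way round. The promoter windows shared an identical run of 38 bases at the start, of which the first 30 are shown here because they show how alike the 2 genes are, with the shared bases in capitals.
Rps27, chr3:90213618-90213647, minus strand: CTTTCCGGCGGTGACGACCTCCCTACGAGA
Rps27rt, chr9:114982710-114982739, minus strand: CTTTCCGGCGGTGACGACCTCCCTACGAGA
Rps27 had 159, 231 and 130 FPKM in Ffat and 185, 84.7 and 86.1 FPKM in Fcon, and Rps27rt had 108, 85.2 and 92.6 FPKM in Ffat and 42.1, 140 and 83.2 FPKM in Fcon. Rps27rt made up 12.4 to 62.3% of their sum over the libraries, with a median of 41%. The r between them was −0.14, and their sum followed the members other than these 2 with an r of 0.89, against 0.80 for Rps27 and 0.25 for Rps27rt (18 libraries). The 2 values are therefore uncertain one by one.

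The shares of other paralogs varied as well. Rps27l made up 23.9 to 67.3% of its sum with Rps27, and Rpl22l1 23.8 to 56.9% of its sum with Rpl22. Rpl36al made up 35.2 to 55.6% of its sum with Rpl36a and Rpl7l1 4.15 to 6.63% of its sum with Rpl7. The low shares of Rpl22l1 came from few libraries, and its median share was 54.2%. They were 23.8% in MT replicate 1 and 24.3% in Fcon replicate 2, where transcript ENSMUST00000103191 of Rpl22 was high, and 29.6% in FTAI replicate 3. The share of Rps27l rests on the value of Rps27, which is uncertain as said above. Rps27l, which p53 induces in human and mouse cells, had 136, 125 and 124 FPKM in Ffat, 90.8, 101 and 110 FPKM in FTAI and 104, 94.3 and 95.4 FPKM in Fcon, so that the Ffat libraries lay above all others of female mice. Its log2 fold change in Ffat against FTAI was 0.35 with a standard error of 0.15 (adjusted p = 0.282 from limma), and in Ffat against Fcon 0.39 with a standard error of 0.15 (adjusted p = 0.129 from limma). Rpl22l1, which can stand in for Rpl22 in mice, had 37.5, 47.9 and 36.9 FPKM in Ffat, 23.2, 31.6 and 22.8 FPKM in FTAI and 25.7, 30.7 and 21.2 FPKM in Fcon. It too lay higher in every Ffat library, with a log2 fold change of 0.64 and a standard error of 0.23 in Ffat against FTAI (adjusted p = 0.163 from limma). Rpl3l, which is known from muscle, and Rpl10l and Rpl39l, known from testis, reached at most 0.0878, 0 and 0.0728% of the sum with Rpl3, Rpl10 and Rpl39.

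The 3 tested cytosolic ribosomal genes that the rule does not take had a median log2 fold change of 0.49 in Ffat against Fcon. Rack1 and Fau among them had 0.82 and 0.32, and none of the 3 was called in any comparison. Their r with the mean member ran from 0.56 to 0.98. Rack1, a scaffold protein on the small subunit, had the highest r of all tested symbols that are no members, at 0.98. It was followed by Rps12-ps3, Cks2, Dkc1, Ipo5, Wdr36, Lbr, Eif3k, Nt5c and Ccdc86, with r between 0.96 and 0.97 over 18 libraries. Dkc1, Wdr36 and Ccdc86 act in or near the nucleolus, Ipo5 imports ribosomal proteins into the nucleus, and Cks2 is a subunit of cyclin-dependent kinases. The lowest r were those of Atf3 (−0.91), a stress-induced transcription factor, Entpd8 (−0.89), Arhgap42 (−0.88), Gpr107 (−0.87) and Gatsl2 (−0.86). These are descriptions over shared libraries.

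Among lists of the pathway, ribosome biogenesis had a median r with the mean member of 0.87 over 68 genes, and elongation factors and other TOP mRNAs of 0.91 over 18 genes. Initiation factors had 0.78 over 30 genes, and the mitochondrial ribosomal proteins, which serve another ribosome, 0.76 over 78 genes. Regulators of ribosomal protein synthesis such as mTOR and MYC had 0.40 over 27 genes. In Ffat against Fcon the median log2 fold change was 0.50 for ribosome biogenesis, 0.41 for TOP mRNAs, 0.29 for initiation factors, 0.32 for mitochondrial ribosomal proteins and 0.05 for the regulators. Calls in this comparison were 0 of 68, 0 of 18, 1 of 30 higher (Eif4g2, log2 fold change 0.67), 1 of 78 higher (Mrpl54, 0.55) and 1 of 27 lower (Mxd1, a MYC antagonist, −0.51), where 2.91% of all tested symbols were higher and 1.67% lower. No ribosome biogenesis gene was called in any comparison.

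Markers of crypt cells and of division followed the members over the libraries. The median r with the mean member was 0.90 over 33 cell cycle genes, 0.89 over 9 crypt stem cell genes and 0.82 over 13 Paneth cell genes, and it was −0.19 over 18 enterocyte genes and −0.57 over 13 mitochondrially encoded genes. All 13 Paneth cell genes in the table were tested and none was listed at 0 in any library. Their summed level was 879 to 2376 FPKM in Ffat, 241 to 6004 FPKM in FTAI and 108 to 251 FPKM in Fcon, and 206 to 301 FPKM in MT, 532 to 690 FPKM in MTAI and 198 to 424 FPKM in Mcon. In Ffat against Fcon 4 of 13 were higher past the threshold, Defa17, Defa30, Lyz1 and Defa24, with log2 fold changes of 3.37, 3.62, 3.55 and 2.78. The 34 cell cycle genes, none at 0, summed to 226 to 246 FPKM in Ffat, 105 to 321 FPKM in FTAI and 107 to 157 FPKM in Fcon, and to 92.5 to 176 FPKM in MT, 169 to 271 FPKM in MTAI and 122 to 234 FPKM in Mcon. Only Ccnb1, a cyclin of mitosis, was called higher among them in Ffat against Fcon (log2 fold change 1.34). The 10 crypt stem cell genes, of which Ascl2 was at 0 in some library, summed to 96.7 to 130 FPKM in Ffat, 34.8 to 181 FPKM in FTAI and 39.4 to 66.8 FPKM in Fcon, and none was called. Markers of some other cells also differed between Ffat and Fcon, where 2.91% of all tested symbols were higher and 1.67% lower. No gene was called there in the goblet cell (10 tested genes), T cell (7), B and plasma cell (8), macrophage (8) and red blood cell (4) lists. Of 7 fibroblast genes 1 was lower. Of 7 enteroendocrine genes 5 were higher past the threshold (median 0.87 on the log2 scale), and the 9 genes of the list, none at 0, summed to 107 to 125 FPKM in Ffat, 64.2 to 88.9 FPKM in FTAI and 51.4 to 55.4 FPKM in Fcon. The 18 enterocyte genes, none at 0, summed to 41040 to 44540 FPKM in Ffat, 25660 to 31860 FPKM in FTAI and 34660 to 37320 FPKM in Fcon, with 3 higher and 3 lower in Ffat against Fcon. The 8 smooth muscle genes, none at 0, summed to 254 to 288 FPKM in Ffat, 278 to 504 FPKM in FTAI and 353 to 423 FPKM in Fcon, with 1 lower (Mylk, log2 fold change −0.38). The part of these cells in the levels of the members was not tested.

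**Figure D5:**
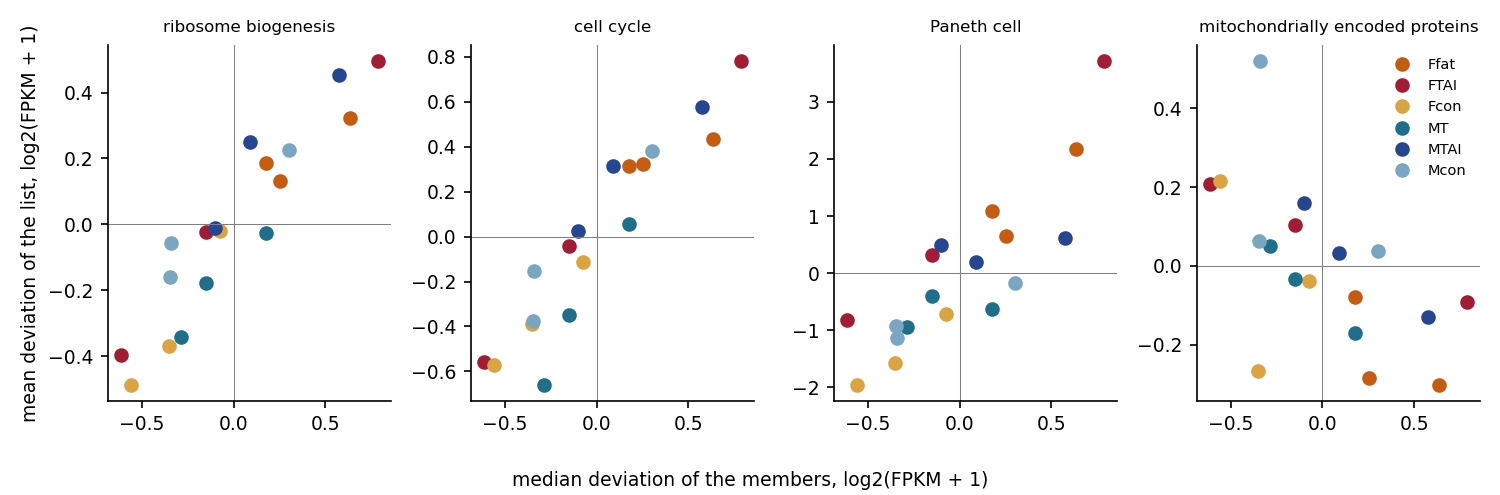
Mean deviation of 4 gene lists against the median deviation of the members, both on log2(FPKM + 1), with 1 point per library coloured by group. Ribosome biogenesis, cell cycle and Paneth cell genes are high where the members are high, with FTAI replicate 3 at the upper right and FTAI replicate 1 and Fcon replicate 3 at the lower left, and mitochondrially encoded genes tend the other way.

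Short transcripts moved in the same direction in most libraries, and mostly less far. The 902 tested symbols with a main transcript under 1000 nt that are no members had medians of −0.19 in Fcon replicate 3 and 0.21 in FTAI replicate 3 (log2), where the members had −0.56 and 0.79. The 5463 symbols with a main transcript of at least 3000 nt had medians of −0.14 and 0.19 in these libraries. In Ffat replicates 1, 2 and 3 the short transcripts had medians of 0.11, 0.17 and 0.04, and the long ones −0.02, 0.03 and 0.02. In Fcon the short transcripts had −0.15, −0.09 and −0.19, and the long ones −0.08, 0.03 and −0.14. The part of transcript length in the block was not tested.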

How the data were processed

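RNA of whole small intestine was sequenced by the authors after NEBNext library preparation, and FPKM per transcript were deposited by the authors for 55869 protein coding transcripts in 18 libraries. Cuffdiff 2.1.1, Bowtie2 2.2.8, StringTie 1.3.1 and HISAT2 are listed in the processing notes of the submitters, with no role stated. The build of the genome is not stated in the sources read here. FPKM hold no read totals, so no count test was possible. Members and lists were chosen with earlier results of these data known. FPKM were summed by symbol, and symbols reaching 1 FPKM in 3 or more libraries were fitted as log2(FPKM + 1) in limma 3.58.1 (R 4.3.3) with 1 mean per group, an intensity trend and Benjamini-Hochberg adjustment over 11767 symbols at 0.05. On this scale the change of low genes is understated. Genes were named by rule: the smallest p values per comparison, the extremes of level, spread and correlation, the stalk genes and the paralogs; others are said to be named after their values were seen, and some members are not reported here by name. Simulated data of 11635 genes for MTAI against Mcon gave 86% of 200 genes changed by 1 (log2) and 11 unchanged ones. That change is larger than the median of the members in any comparison, so the share does not give the power of their tests. Alternatives were other pseudocounts, filters, scalings, variance models, the main transcript, a replicate block and each library left out. Sequences came from RefSeq (GRCm38.p6) and transcript words from GENCODE M21, read with Python 3.11.15.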

Additional observations from a re-analysis of the deposited data

How the results depend on the processing

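The members higher in Ffat against Fcon numbered 1 in the fit of all libraries. They numbered 58 with the compared groups alone, 41 with groups weighted by their own spread, 3 with median ratio scaling, 0 with the main transcript, and 0 to 34 when 1 library was left out, of which the 34 came without FTAI replicate 3. The replicate numbers did not pair the libraries (same-numbered libraries correlated between −0.46 and 0.32), and with the replicate number as a block 3 members were higher in Ffat against Fcon, as were 4.01% of all symbols, and no other count changed. Relative to the median member, 1 was higher and 3 lower with groups weighted by their own spread, and 2 higher and 1 lower with the compared groups alone, against 0 and 0. Leaving out 1 library gave 0 to 4 members higher in Ffat against FTAI, 0 to 2 in FTAI against Fcon and 0 to 1 in Fcon against Mcon. The main transcript gave 1 higher in MT against Mcon (Rpl10, named after its values were seen; 1.99% of all symbols). The causes were not tested. The median fold change of the members spanned 0.0065 to 0.74 in Ffat against FTAI, −0.042 to 0.64 in FTAI against Fcon, and 0.53 to 0.81 in Ffat against Fcon when 1 library was left out. Quantile normalization and median ratio scaling moved the median of all symbols in Ffat against Fcon to −0.02 and 0.01, against 0.10, and that of the members to 0.56 and 0.58. With quantile normalization 327 of all symbols were higher and 542 lower in that comparison, with median ratio scaling 303 and 357, against 343 and 197. The median over members spread with an SD of 0.397 (log2) within groups of 3 libraries.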
